A study of Mus musculus with 16 samples.

Results

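AICAR was set against no drug in injured mouse hearts by counting circular RNAs (circRNAs). The MIRI+AICAR group held 5 libraries from hearts given AICAR after myocardial ischaemia and reperfusion injury (MIRI), and the MIRI group held 3 libraries from hearts with the injury alone. All were C57BL/6 males. Both groups shared the same injury, a tie around the left anterior descending coronary artery that was released after 30 min, with hearts taken 1 week later. The labels give neither the dose nor the timing of AICAR, and name no vehicle. MIRI+Compound C (5 libraries, the same injury with an AMPK inhibitor) and Sham (3 libraries, no ligation) also entered the fit. They took part in the filter on low counts, the scaling and the estimate of the spread, and their levels are given beside some results. The design lists 8 mice per group, but the labels do not say how mice became libraries or that replicates are separate mice, and the spread that p-values measure here may therefore be technical. The comparison covers every circRNA with a count in the 8 libraries, 32866 of 40381 in the series, and the sums of circRNAs over 6403 host genes, the genes that the circles are cut from.

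A circRNA forms when the end of an exon is spliced back to the start of the same or an earlier exon, so that the exons between close into a ring. The ring has no free ends, which makes it resistant to exonucleases and long-lived, and its amount need not follow that of the linear transcript. AICAR enters cells through adenosine transporters and is phosphorylated by adenosine kinase to ZMP, an AMP mimic that activates AMPK. AMPK is a kinase that responds to falling energy charge, and in heart muscle it is known to promote glucose uptake and fatty acid oxidation and to restrain growth.

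Back-splice totals were 178086 to 240889 per MIRI+AICAR library and 124023 to 173011 per MIRI library. The 5 MIRI+AICAR libraries resembled their own group more closely, with median correlations of 0.834 to 0.85, than the 3 MIRI libraries did, with 0.77 to 0.785. Each MIRI library correlated better with the MIRI+AICAR libraries, at 0.793 to 0.818, than with its own group. The MIRI+AICAR libraries were also deeper, and what depth adds to these correlations was not tested. MIRI+AICAR 5 and, by far more, MIRI 1 stood apart in circRNAs of genes known from platelets and vessel walls. The labels name the cell type as cardiac muscle cell but describe no isolation. Circles of Ttn were abundant in every library, as were those of endothelial genes, whose summed level over 19 tested genes was 5874.7 to 6915.5 CPM (counts scaled to a common library size) in MIRI+AICAR and 6658.0 to 7347.4 in MIRI. In such bulk tissue, fewer cells of a type and less RNA per cell cannot be told apart.

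Few circRNAs separated the groups beyond the spread between libraries. Of 7917 tested circRNAs, 2 had an adjusted p under 0.05 in edgeR's quasi-likelihood test (0.0253% of those tested): a circle of Arhgef40 was higher and a circle of Ttn was lower in MIRI+AICAR. Of 3699 tested host gene sums, 1 passed (0.0270%), again Arhgef40. For 6172 circRNAs, the change of each was also tested against the other tested circles of its host gene. Of these 1 passed (0.0162%), the same Ttn circle. Without adjustment, 245 circRNAs (3.09%) were higher and 143 (1.81%) lower at p under 0.05, and for host genes 121 (3.27%) were higher and 129 (3.49%) lower. Every MIRI+AICAR library lay above every MIRI library for 214 circRNAs (2.70%) and below for 156 (1.97%), and for host genes these counts were 93 (2.51%) and 74 (2.00%). The median log2 fold change was 0.03 over circRNAs and 0.02 over host genes.

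**Figure D1:**
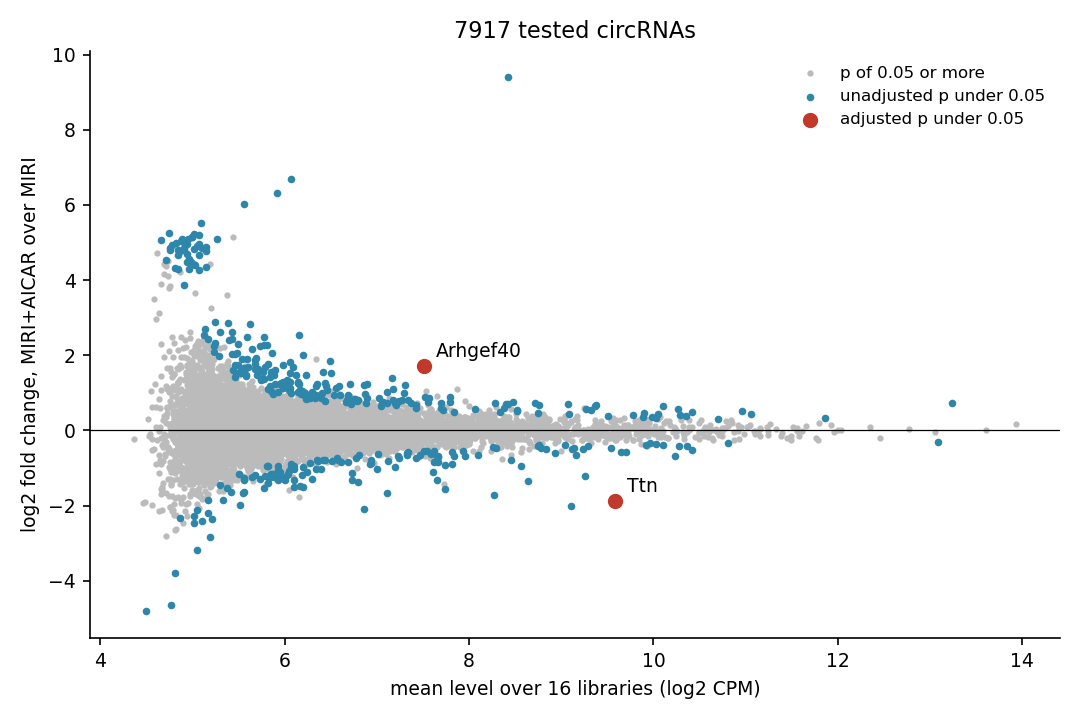
Each point is 1 of the 7917 tested circRNAs, with its mean level over 16 libraries in log2 CPM on the x axis and its log2 fold change, MIRI+AICAR over MIRI, on the y axis. Only the Arhgef40 and Ttn points pass the adjusted threshold, at 1.73 and -1.87, and the point at 9.39 is a Spopl circle counted in 2 of the 5 MIRI+AICAR libraries.

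The Arhgef40 circle was higher with AICAR in every library. Arhgef40 encodes a guanine nucleotide exchange factor of the Dbl family. The circle (novel_circ_021131, chr14:51994880-51996407 on GRCm38, plus strand) joins exons 11 to 13 of a 24-exon GENCODE transcript, all coding, into 394 nucleotides. Its levels were 349, 208, 170, 207 and 210 CPM in MIRI+AICAR libraries and 36.5, 89.4 and 78.0 CPM in MIRI libraries. All 5 MIRI+AICAR libraries lay above all 3 MIRI libraries, and MIRI+AICAR 1 stood highest. The log2 fold change was 1.73 (SE 0.32, 95% interval 1.11 to 2.34, adjusted p = 0.0264), or 3.31-fold. Mean levels were 181 ± 27.9 CPM in MIRI+Compound C (SD, n = 5) and 142 ± 23.9 in Sham (SD, n = 3), so the MIRI libraries held the lowest levels of the 4 groups. This circle made up 98.4% of Arhgef40 back-splice counts on average in MIRI+AICAR and all of them in MIRI, so the host gene result (log2 1.68, SE 0.31, adjusted p = 0.0308) rests on the same reads.

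The depth behind this call was low, with 33 to 56 reads per MIRI+AICAR library and 5, 14 and 9 per MIRI library. The adjusted p was above 0.05 in 12 of 18 other settings. Among them were edgeR fits of only the 2 groups (0.202), of thinned libraries (0.121) and with a replicate block (0.268), and voom with quality weights (0.295). Leaving out MIRI+AICAR replicate 1, 2, 4 or 5 or MIRI replicate 1 or 3 also lost the call. The log2 fold change stayed between 1.44 and 2.04 in all settings.

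The Ttn circle was lower with AICAR in every library. Ttn encodes titin, the giant spring protein of the sarcomere, and its many exons for the elastic I-band are known to be alternatively spliced under the control of Rbm20 and to give rise to many circles. The circle (novel_circ_036213, chr2:76857904-76884197, minus strand) runs from exon 85 to exon 119 of a 313-exon transcript, all coding, 6501 nucleotides in all. Its levels were 255, 315, 170, 256 and 252 CPM in MIRI+AICAR libraries, against 1364.1, 792 and 563 CPM in MIRI libraries. The 5 treated libraries were close together and all below the MIRI libraries, which spread widely with MIRI 1 at the top. Its log2 fold change was -1.87 (SE 0.32, 95% interval -2.50 to -1.24, adjusted p = 0.0211). MIRI+Compound C averaged 1038.9 ± 704 CPM (SD, n = 5) and Sham 992 ± 67.2 (SD, n = 3), so that the MIRI+AICAR libraries alone sat at the low level. Its adjusted p was above 0.05 in 8 of 18 other settings, among them leaving out MIRI replicate 1 (log2 -1.44, adjusted p = 0.213) or MIRI+AICAR replicate 1, 3, 4 or 5.

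The bases around the back-splice show which neighbours share its ends. In each of the 5 lines the 25 lower-case bases end the last exon of the circle and the 25 capitals begin its first exon, read from the GENCODE transcript.
Ttn novel_circ_036213: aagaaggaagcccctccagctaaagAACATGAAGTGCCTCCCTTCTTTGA
Ttn novel_circ_036212: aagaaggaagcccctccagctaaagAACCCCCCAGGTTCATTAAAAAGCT
Ttn novel_circ_036181: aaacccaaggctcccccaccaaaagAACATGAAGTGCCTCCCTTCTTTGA
Ttn novel_circ_036234: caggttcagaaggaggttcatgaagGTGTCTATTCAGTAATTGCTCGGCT
Arhgef40 novel_circ_021131: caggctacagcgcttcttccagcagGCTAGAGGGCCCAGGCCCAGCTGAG

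The first 2 lines share their lower-case bases, since novel_circ_036212 ends at the same exon 119 and begins an exon later, at exon 86. That circle had 143, 264, 95.2, 212 and 132 CPM in MIRI+AICAR libraries and 270, 306 and 156 CPM in MIRI libraries, and the groups overlapped (log2 -0.55, SE 0.31, adjusted p = 0.999). The third line shares its capitals with the first, since novel_circ_036181 begins at exon 85 and runs on to exon 133. It was near the limit of detection, at 0 to 44.1 CPM in MIRI+AICAR and 21.9 to 51.1 CPM in MIRI (log2 -1.25, SE 0.71, adjusted p = 0.999). The most abundant Ttn circle, novel_circ_036234, which joins exons 105 to 111, averaged 6465.5 ± 864 CPM in MIRI+AICAR (SD, n = 5) and 6315.1 ± 1830.2 in MIRI (SD, n = 3), with a log2 fold change of 0.03 (SE 0.18).

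Across the gene, 22 Ttn circles were tested and 14 had a positive and 8 a negative fold change. The host gene sum was 6522.0 to 8930.6 CPM in MIRI+AICAR and 6367.8 to 9495.8 CPM in MIRI (log2 -0.12, SE 0.13, adjusted p = 0.965). Within that sum, novel_circ_036213 took 3.0% ± 0.654 of Ttn counts in MIRI+AICAR (SD, n = 5), against 11.3% ± 7.53 in MIRI (SD, n = 3), 10.2% ± 8.61 in MIRI+Compound C and 9.6% ± 1.96 in Sham. Relative to the other tested Ttn circles its log2 change was -1.80 (adjusted p = 1.07e-05). That call held in 13 of 15 other settings and was lost without MIRI replicate 1 (-1.25, adjusted p = 0.156) and when MIRI+AICAR replicate 5 was left out together with MIRI replicate 1 (-1.29, adjusted p = 0.125). The sum over circles of Rbm20 itself was at 0.24 on the log2 scale.

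**Figure D2:**
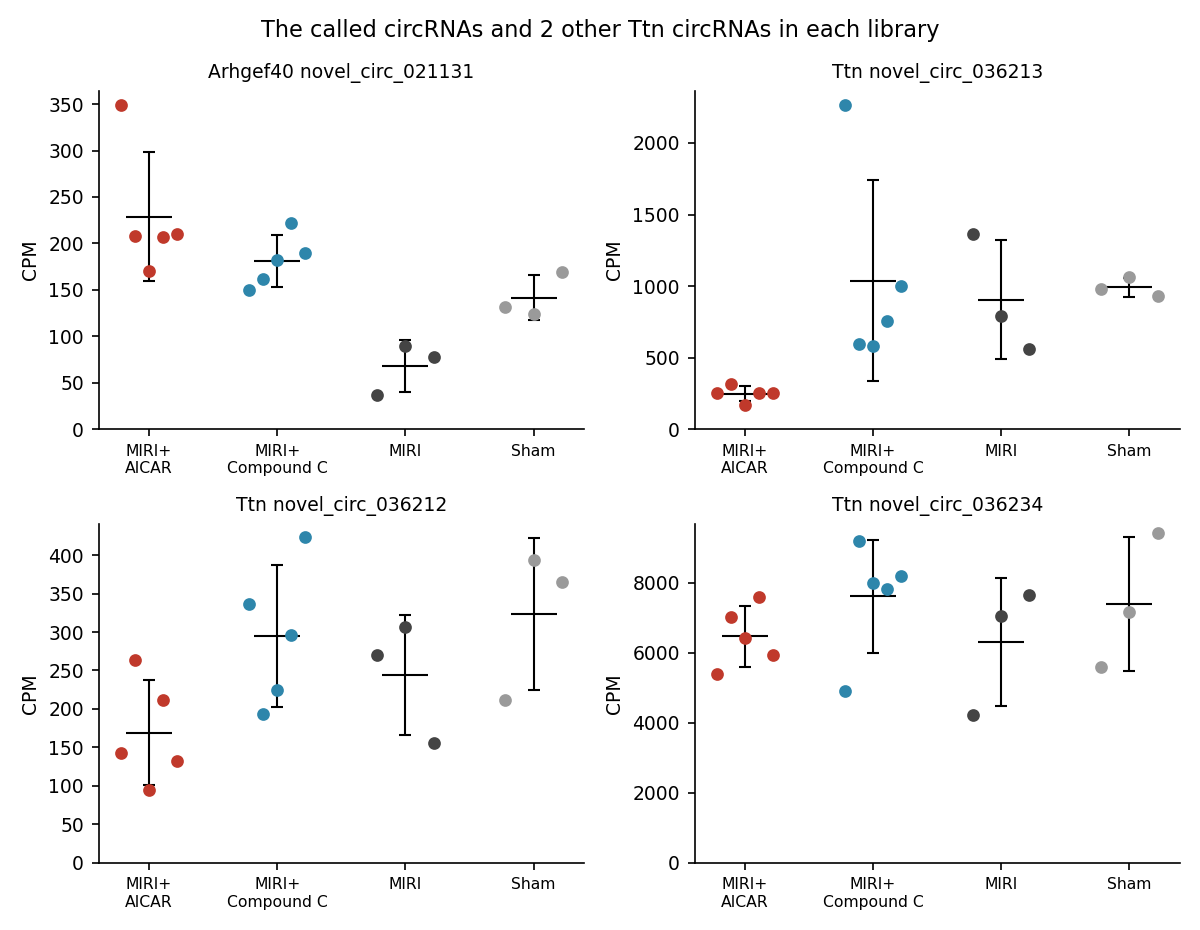
Levels in CPM of 4 circRNAs (y axis) in each library (points) of the 4 groups (x axis), with the group mean and SD as bars. Arhgef40 novel_circ_021131 is higher and Ttn novel_circ_036213 lower in all MIRI+AICAR libraries than in all MIRI libraries, while the other Ttn circles overlap.

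**Figure D3:**
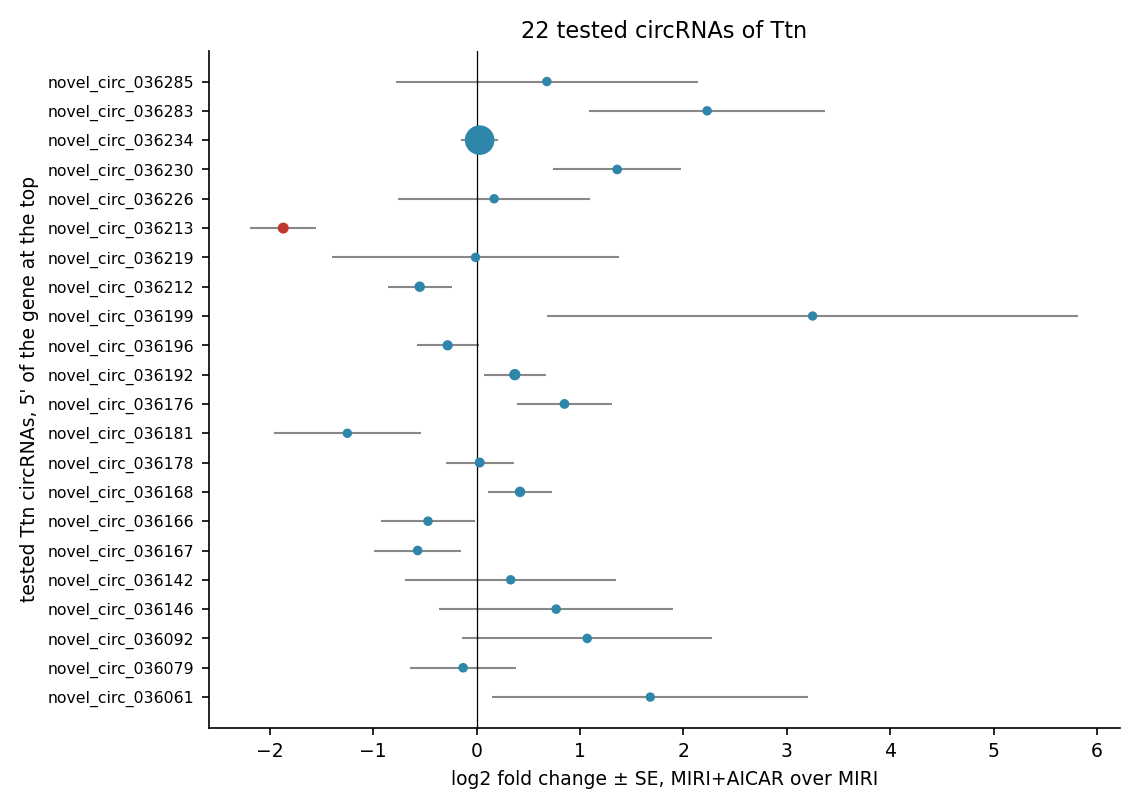
Log2 fold change with its SE (x axis) for each of the 22 tested Ttn circRNAs (y axis, from the 5′ end of the gene at the top), with point area growing with the mean level in MIRI+AICAR. Only novel_circ_036213, in red at -1.87, passes the adjusted threshold, and the large point at 0.03 is novel_circ_036234.

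Below the threshold, the higher circles and host genes of smallest p included several that were listed at 0 in MIRI libraries. A circle of Diaph2, a formin gene whose protein elongates actin filaments, had 106, 69.2, 65.1, 62.7 and 120 CPM in MIRI+AICAR libraries and was listed at 0 in all 3 MIRI libraries (novel_circ_068491, chrX:129801395-129825947). All treated libraries had a count, but 2 of 5 MIRI+Compound C libraries were also at 0 and Sham averaged 80.1 ± 30.1 CPM (SD, n = 3). Taking 3 reads per MIRI library as the limit that a count of 0 allows, it was at least 3.78-fold higher (adjusted p = 0.0824). A circle of Adamtsl2, which encodes a secreted matrix protein that binds latent TGF-beta binding protein, had 31.5 to 70.1 CPM in MIRI+AICAR. It was listed at 0 in all MIRI libraries (adjusted p = 0.335). Its reads were 5 to 14 per MIRI+AICAR library, 4, 6, 10, 8 and 0 in MIRI+Compound C and 0, 7 and 4 in Sham. A circle of the ephrin receptor gene Ephb2 had 4 to 10 reads per MIRI+AICAR library. It was listed at 0 in all MIRI and Sham libraries, but had 3 to 5 reads in every MIRI+Compound C library. The filter on low counts uses these same few reads, so no fold is given for the Adamtsl2 and Ephb2 circles.

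Glis3, a zinc finger transcription factor gene, had the smallest p among host genes not called. Its summed levels were 760, 546, 662, 590 and 542 CPM in MIRI+AICAR libraries and 298, 389 and 344 CPM in MIRI libraries. The groups did not overlap (log2 0.85, SE 0.18, adjusted p = 0.152), and Sham lay lower still at 194 ± 37.6 CPM (SD, n = 3). All 4 tested Glis3 circles were higher, by 0.77 to 1.91 on the log2 scale, each with an unadjusted p under 0.05. A host gene sum and its circles share reads, so the directions of circles given here and below are no separate results. The Glis3 sum was called in 3 of 18 other settings, DESeq2 among them (adjusted p = 0.043). The highest adjusted p of the 18 was 0.551.

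Adgre1, which encodes the macrophage surface receptor F4/80, had 1830.4, 1394.7, 1778.8, 1598.3 and 1883.1 CPM in MIRI+AICAR libraries and 941, 1353.3 and 1192.2 CPM in MIRI libraries. The lowest treated library lay just above the highest MIRI library (log2 0.54, SE 0.16, adjusted p = 0.379), and 6 of its 8 tested circles were higher. Of the 16 tested macrophage and leukocyte genes, Adgre1 included, 9 had a positive and 7 a negative fold change, with a median of 0.16. Without MIRI replicate 1, 14 of 16 were positive (median 0.33), while Adgre1 itself fell to log2 0.43 (adjusted p = 0.709). Summed over the 16 tested genes the groups overlapped, at 4411.5 to 5461.6 CPM in MIRI+AICAR and 4021.7 to 5231.0 CPM in MIRI. Itgam, an integrin gene of myeloid cells, was at log2 1.78 (adjusted p = 0.551) and Cd84, a leukocyte receptor gene, at log2 -1.21 (adjusted p = 0.455).

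Gxylt2, which encodes a xylosyltransferase that acts on Notch, had 168 to 338 CPM in MIRI+AICAR and 84.0 to 168 CPM in MIRI (log2 1.05, SE 0.30, adjusted p = 0.379). Eif4e3, a cap-binding protein gene, had 141 to 220 CPM in MIRI+AICAR and 50.4 to 114 CPM in MIRI (log2 1.07, SE 0.30, adjusted p = 0.379), and its circle novel_circ_053438 was at log2 1.53 (adjusted p = 0.398). Kif26b, an unconventional kinesin gene, had 52.3 to 182 CPM in MIRI+AICAR and 0 to 65.9 CPM in MIRI (log2 2.01, SE 0.58, adjusted p = 0.379). Further circles of small p were those of R3hcc1l (log2 2.23, adjusted p = 0.801) and Kmt2c (log2 1.56, adjusted p = 0.801), and neither passed.

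Among host genes lower with AICAR, none was called, and the groups of several did not overlap. Pdzd2, a multi-PDZ scaffold gene, had 1272.9, 1348.2, 1107.8, 1344.1 and 1314.4 CPM in MIRI+AICAR libraries and 1759.4, 1700.6 and 1880.7 CPM in MIRI libraries. Both groups were tight and apart (log2 -0.48, SE 0.12, adjusted p = 0.366). Of 18 other settings only DESeq2 called the Pdzd2 sum (adjusted p = 0.0388), and the highest adjusted p was 0.69. Most of the counts came from novel_circ_022108, exons 3 to 5, which averaged 976 ± 110 CPM in MIRI+AICAR (SD, n = 5) and 1394.9 ± 16.8 in MIRI (SD, n = 3), below 1480.6 ± 152 in MIRI+Compound C and 1763.1 ± 75.2 in Sham. Tfdp2, which encodes a dimer partner of E2F cell cycle factors, had 1266.2 to 1529.4 CPM in MIRI+AICAR and 1814.4 to 2224.9 CPM in MIRI (log2 -0.58, SE 0.15, adjusted p = 0.366), and 9 of its 11 tested circles were lower. The zinc finger gene Zfp68 had 359 to 471 CPM in MIRI+AICAR and 548 to 613 CPM in MIRI (log2 -0.57, SE 0.15, adjusted p = 0.379).

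Xdh encodes xanthine dehydrogenase, which makes urate in purine breakdown. Its circles had 681, 709, 648, 784 and 681 CPM in MIRI+AICAR libraries and 1042.1, 922 and 940 CPM in MIRI libraries. The treated libraries were all lower (log2 -0.46, SE 0.13, adjusted p = 0.379), and both groups lay under MIRI+Compound C at 1754.9 ± 139 CPM (SD, n = 5) and Sham at 1650.3 ± 281 (SD, n = 3). Of the 7 tested Xdh circles, 6 were lower. Stox2, a winged-helix gene, had 16.1 to 38.8 CPM in MIRI+AICAR and 47.4 to 114 CPM in MIRI (log2 -1.52, SE 0.42, adjusted p = 0.379). Single circles of Usp40, Zeb2, Aplp2 and Mtmr12 were also among the lower ones of smallest p, with log2 fold changes from -1.51 to -0.78 and adjusted p from 0.732 to 0.801.

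Other lower host genes were high in 1 MIRI library. Trpc6, a cation channel gene of platelets and smooth muscle, had 130, 256, 126, 284 and 1196.4 CPM in MIRI+AICAR libraries and 4824.9, 216 and 252 CPM in MIRI libraries. MIRI 1 was far above all others and MIRI+AICAR 5 came next, while the remaining libraries of both groups overlapped. The same order of the top libraries was seen for Pde5a, the cGMP phosphodiesterase gene, with 1647.1 CPM in MIRI+AICAR 5 and 5650.5 in MIRI 1. It held for Itgb3, the platelet integrin beta 3 gene, with 252 CPM in MIRI+AICAR 5 and 1251.9 in MIRI 1, and for Med12l, a Mediator subunit gene, with 1142.8 CPM in MIRI+AICAR 5 and 3139.9 in MIRI 1. The log2 fold changes of the 4 genes were -2.16, -1.52, -2.30 and -1.43 in this order, and none was called, with adjusted p from 0.379 to 0.455. Without both libraries, Itgb3 was at 0.16 (adjusted p = 0.999).

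The platelet and megakaryocyte list holds Trpc6, Pde5a, Itgb3 and Med12l, so its height in MIRI 1 is mostly theirs and no separate result. All 9 tested genes of 27 had a negative fold change, with a median of -1.37. Of these, 5 had an unadjusted p under 0.05, Trpc6, Pde5a, Itgb3 and Med12l among them. The summed level of the 9 tested genes was 1655.8 to 5182.6 CPM in MIRI+AICAR and 1515.0 to 16978.6 CPM in MIRI. Itga2b, Gp1ba, Pf4 and Ppbp, which mark platelets most closely, had no count in the 8 libraries. Without MIRI replicate 1, 7 of 10 tested genes were positive (median 0.68), and without MIRI+AICAR replicate 5 and MIRI replicate 1, 4 of 9 were (median -0.03). The kinase genes Tec, a non-receptor tyrosine kinase, and Tnik, a Ste20-type kinase, also had their highest level in MIRI 1, at 711 and 751 CPM, and their log2 fold changes of -0.91 and -1.06 became -0.27 and -0.25 without it. For the called Ttn circle, the log2 fold change without MIRI 1 was -1.44, and MIRI replicates 2 and 3 still lay above all treated libraries.

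**Figure D4:**
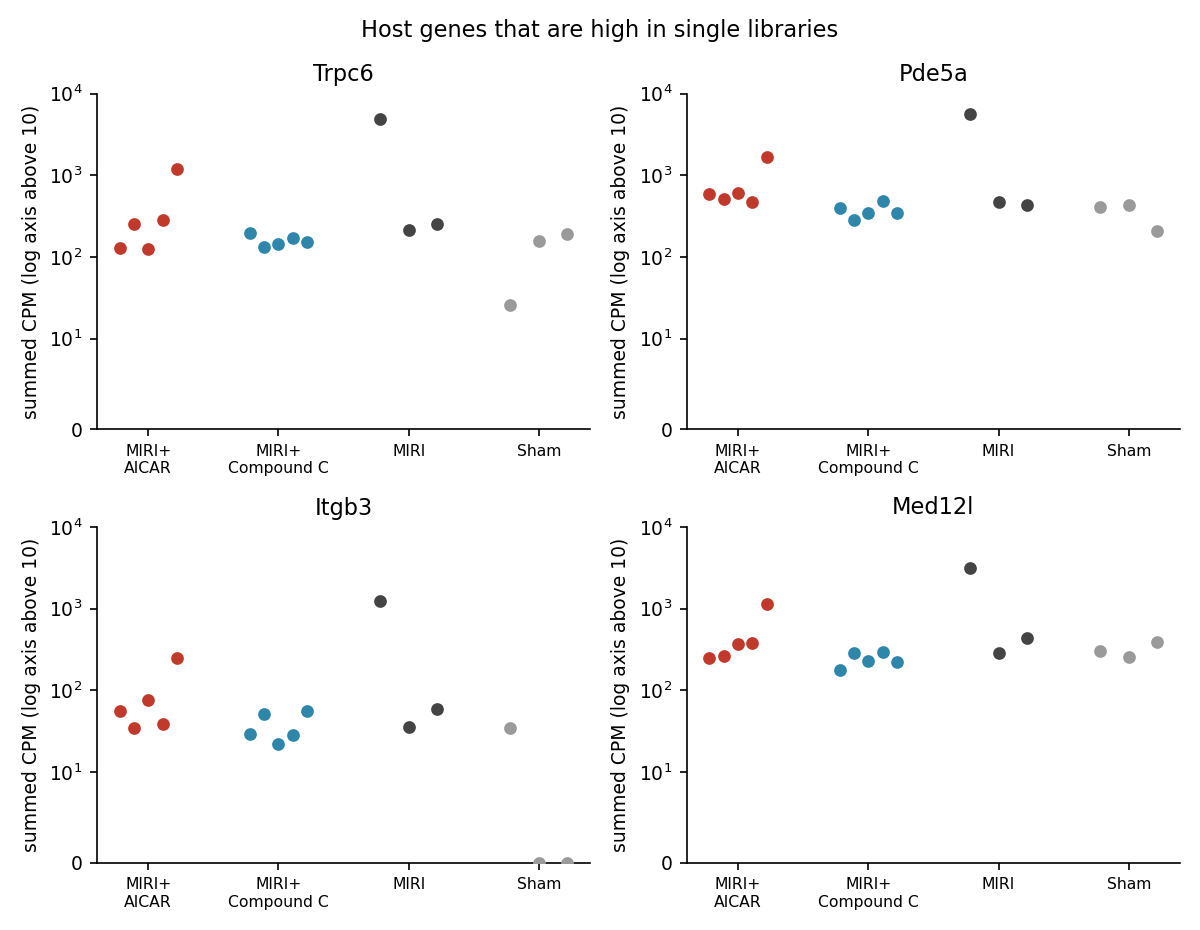
Summed CPM of all circRNAs of Trpc6, Pde5a, Itgb3 and Med12l (y axis, logarithmic above 10) in each library (points) of the 4 groups (x axis). MIRI+AICAR 5 and MIRI 1 stand above the other libraries of their groups in each panel.

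The genes of AMPK itself were not called in either direction. Of 7 AMPK subunit genes, 3 were tested and all had negative fold changes: Prkaa1 (-0.46) and Prkaa2 (-0.61), the catalytic subunits, and Prkag2 (-0.09), a regulatory subunit, with adjusted p from 0.911 to 0.977. Without MIRI replicate 3, 2 of the 3 were positive (median 0.12, against -0.46 with it), and without MIRI replicate 2 the median was -0.10 with 1 positive. Circles of the catalytic subunit genes were scarce, with 27.0 to 80.5 CPM for Prkaa2 in MIRI+AICAR and 27.1 to 168 CPM in MIRI. Prkag2 had 164 to 247 CPM in MIRI+AICAR and 176 to 302 CPM in MIRI, and the groups overlapped for all 3 genes. Of 11 tested upstream kinases and partners 6 were positive and 5 negative (median 0.01), and of 35 tested AMPK substrates 19 were positive and 16 negative (median 0.04), with 0 at an unadjusted p under 0.05 in each of the 3 lists.

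For the route of AICAR, 4 of 35 genes of its uptake and of purine metabolism were tested. Adk encodes adenosine kinase, which turns AICAR into its active form, and its circles had 186, 186, 216, 224 and 48.3 CPM in MIRI+AICAR libraries and 305, 317 and 260 CPM in MIRI libraries. All treated libraries lay below all MIRI libraries, with MIRI+AICAR 5 lowest (log2 -0.76, SE 0.26, adjusted p = 0.475). Xdh was the other gene of that list with an unadjusted p under 0.05, while Hprt (0.16) and Adsl (0.18) were near 0.

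Among fuel genes, 10 of 14 tested genes of glucose uptake, glycolysis and glycogen were positive (median 0.23), 5 of 18 of fatty acid uptake and oxidation (median -0.22) and 5 of 20 of the citric acid cycle and respiratory chain (median -0.16), beside 1917 of 3699 over all host genes (median 0.02), and none was called. Etfb, an electron transfer flavoprotein gene, was at -0.86, Acadm, medium-chain acyl-CoA dehydrogenase, at -0.60, and Eci1, an enoyl-CoA isomerase of fatty acid oxidation, at -0.42. These 3 had an unadjusted p under 0.05 and adjusted p from 0.711 to 0.731. Without MIRI+AICAR replicate 5 or without MIRI replicate 3, 0 genes of the list had an unadjusted p under 0.05 in that edgeR test, and the glucose median was 0.10 without MIRI replicate 1 or MIRI replicate 3. Idh2, mitochondrial isocitrate dehydrogenase, had 56.3, 40.7, 0, 47.4 and 10.7 CPM in MIRI+AICAR libraries and 102, 83.8 and 101 CPM in MIRI libraries. Its groups did not overlap (log2 -1.61, SE 0.53, adjusted p = 0.455). Mitochondrial biogenesis and dynamics genes split 7 to 7 (median -0.03), and of mTOR, autophagy and lysosome genes 18 of 30 were positive (median 0.09), with Optn, an autophagy receptor gene, at -1.35 (adjusted p = 0.492).

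Heart muscle genes had small median fold changes. Of 28 tested sarcomere and Z-disc genes 10 were positive (median -0.10), and of 28 tested calcium handling and ion channel genes 9 were positive (median -0.06). Slc8a1, the sodium-calcium exchanger gene and one of the richest sources of heart circles, had 8577.7, 13418.5, 15869.9, 15418.6 and 16095.1 CPM in MIRI+AICAR libraries and 7917.5, 8694.8 and 12719.9 CPM in MIRI libraries. The ranges overlapped through MIRI+AICAR 1 and MIRI 3 (log2 0.51, SE 0.21, adjusted p = 0.599).

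Of 24 tested matrix and fibroblast genes 16 were positive (median 0.26), none called. Fn1, the fibronectin gene, had 11.3, 46.5, 31.5, 21.5 and 21.5 CPM in MIRI+AICAR libraries and 0 in all MIRI libraries (adjusted p = 0.551). These were only 2, 8, 7, 5 and 4 reads, near the limit of detection, and no single Fn1 circle passed the filter. Col3a1, a fibrillar collagen gene, had 110 to 188 CPM in MIRI+AICAR and 0, 24.0 and 210 CPM in MIRI libraries. Col3a1 was thus spread more widely within MIRI than between the groups. Summed over the list the level was 2711.0 to 2996.3 CPM in MIRI+AICAR and 2634.8 to 3329.4 CPM in MIRI. Endothelial genes were 9 of 19 positive (median -0.04), and the 3 with an unadjusted p under 0.05 were lower. Prex2, a Rac exchange factor gene, had 879 to 974 CPM in MIRI+AICAR and 1096.3 to 1299.4 CPM in MIRI (log2 -0.38, adjusted p = 0.506). Fli1 (log2 -0.69, adjusted p = 0.523) and St6galnac3 (log2 -0.76, adjusted p = 0.455) were highest in MIRI 1, at 805 and 1204.5 CPM. Smooth muscle and pericyte genes were 5 of 10 positive, and the 3 with an unadjusted p under 0.05 were lower: Trpc6, Pde5a and Pdgfd, a platelet-derived growth factor gene (log2 -0.36, adjusted p = 0.562). Erythroid genes were 0 of 2, Schwann cell and neuronal genes 3 of 5, and adipose and epicardial genes 0 of 3 positive.

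Interferon response genes had 12 of 16 positive (median 0.25). Cell cycle genes were 6 of 10 positive (median 0.02). Regulators of splicing and circRNA formation were 12 of 28 positive (median -0.07).

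The most abundant circles had small differences, none of them called. The 10 with the highest mean count over the 8 libraries had log2 fold changes from -0.30 to 0.73, 0 were called, and the smallest adjusted p was 0.886. The circle of Nfix, a nuclear factor I gene, averaged 15774.3 ± 754 CPM in MIRI+AICAR (SD, n = 5) and 14097.3 ± 2858.1 in MIRI (SD, n = 3), and that of the translation regulator gene Gigyf2 12697.4 ± 764 in MIRI+AICAR and 12652.4 ± 1569.6 in MIRI. The largest difference was that of Slc8a1 novel_circ_027970, at 12987.4 ± 3381.9 CPM in MIRI+AICAR (SD, n = 5) and 7832.5 ± 2583.5 in MIRI (SD, n = 3). The smaller Slc8a1 circle novel_circ_027956 had a log2 fold change of -0.14. Relative to the other tested Slc8a1 circles its log2 change was -0.72, which was not called.

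Circles of 1 host gene usually mixed directions. Of 585 host genes with at least 4 tested circles, 46 had all of them higher and 20 all lower. Glis3 was among the first, with 4 of 4. Kcnt2, a sodium-activated potassium channel gene, had 13 of 13 higher with a median of 0.29 and Pik3c2a, a lipid kinase gene, 11 of 11 (median 0.57), which were named after their values were seen. Among those all lower were Pde5a with 7 of 7 (median -1.32) and Tec and Tnik with 4 of 4 each, the genes high in MIRI 1.

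The difference in kinds of circRNA at a matched total depended on the minimum count. After thinning each library to 124023 counts and counting circles with at least 2, there were 11497, 11477, 11378, 11391 and 11474 kinds in MIRI+AICAR libraries and 11347, 11074 and 10965 in MIRI libraries. All treated libraries lay above all MIRI libraries, by 314.7 kinds on average (exact permutation test, two-sided p = 0.0357, the smallest that 5 against 3 allows). Counts of 1 are missing from the table as deposited, and thinning makes them only in the deeper libraries, not in MIRI 3, which was left as deposited. With at least 5 counts the difference was -68.7 (exact permutation p = 0.179).

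Exonic circles took 95.5% ± 0.136 of counts in MIRI+AICAR (SD, n = 5) and 95.4% ± 0.0985 in MIRI (SD, n = 3), a difference of 0.131 percentage points. Intronic, exon-intron and intergenic circles differed by -0.0667 to -0.0162 percentage points. Long exonic circles, of over 1000 nucleotides, took 11.5% to 13.7% of counts in MIRI+AICAR libraries and 9.94%, 10.5% and 12.6% in MIRI libraries. The means differed by 1.69 percentage points, but MIRI 3 lay within the treated range (exact permutation p = 0.107, adjusted over 5 classes p = 0.357).

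Fold changes leaned upward with length, a grouping made after the values were seen. The median log2 fold change was -0.10 for 539 tested exonic circles of up to 250 nucleotides, -0.01 for 3527 longer ones of up to 500, 0.10 for 2417 of up to 1000 and 0.21 for 950 above that. At an unadjusted p under 0.05, 54 of the longest were higher (5.68%) and 7 lower (0.737%), while of the shortest 6 were higher (1.11%) and 16 lower (2.97%). Without MIRI replicate 1 the 4 medians were 0.10, 0.04, 0.09 and 0.16, and without MIRI replicate 3 they were -0.22, -0.04, 0.14 and 0.33. The called Ttn circle, at 6501 nucleotides, went against this lean.

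**Figure D5:**
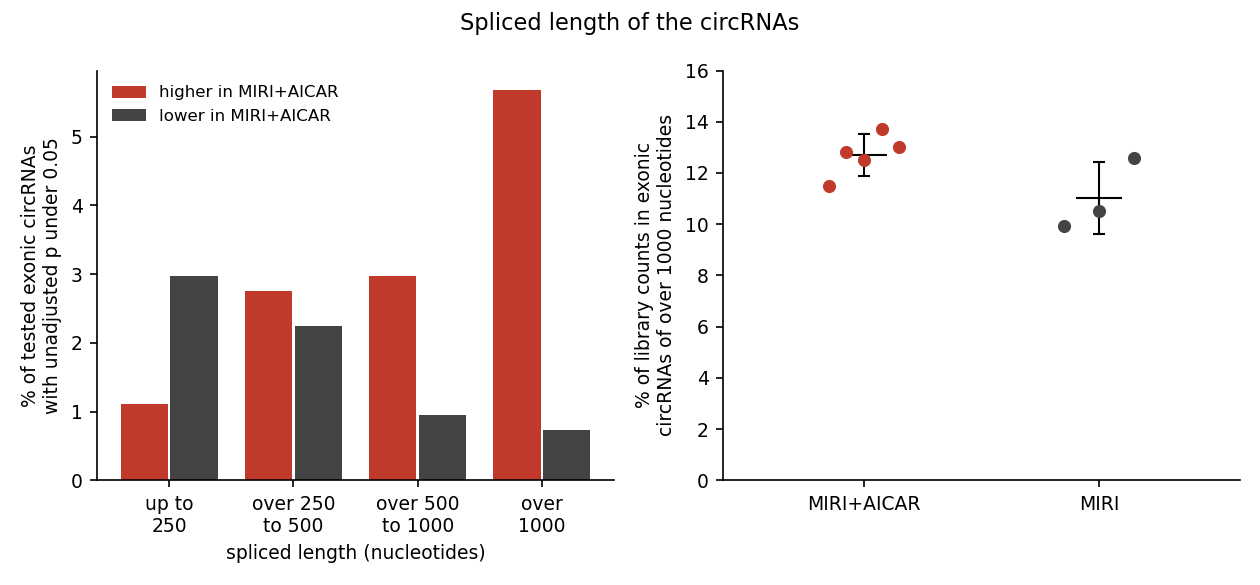
Left, the percentage of tested exonic circRNAs with an unadjusted p under 0.05 (y axis) that were higher (red) or lower (grey) in MIRI+AICAR, by spliced length class (x axis). Right, the percentage of library counts in exonic circRNAs of over 1000 nucleotides (y axis) in each library (points), with group means and SD: 11.5 to 13.7 in MIRI+AICAR and 9.94 to 12.6 in MIRI.

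A count in all 5 MIRI+AICAR libraries and 0 in all 3 MIRI libraries was seen for 99 circles, of which 20 passed the filter, and the reverse for 16, of which 1 passed. The treated libraries were deeper and the counts small, and at this depth a listed 0 can hide a circle with few reads. Besides Diaph2, Adamtsl2 and Ephb2, the highest mean counts of the first kind were those of Itgam, with 5 to 8 reads per MIRI+AICAR library, and Mindy3, with 3 to 10. Of the second kind, a circle of Adap2 had 7, 4 and 2 reads in MIRI libraries and that of Supt6 2, 5 and 2.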

How the data were processed

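The authors deposited 1 table of back-splice read counts per circRNA and library, made with CIRI per the file headers. The CIRI version was not given in the sources used here. Per the labels' protocols, RNA was DNase-treated, depleted of ribosomal RNA and digested with RNase R, and libraries were stranded (dUTP). The smallest deposited count above 0 is 2, so a listed 0 can be 1 read. The submitters' processing notes name mm9, but 88.9% of exonic circRNA starts lie on GENCODE M21 exon starts of GRCm38 (0.35% after a shift of 1 base), so coordinates are given on GRCm38. Exon numbers and sequences come from a GENCODE M21 transcript that holds both ends.

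CircRNAs were kept by filterByExpr (minimum count 5, minimum total 15), scaled by TMM and tested by edgeR 4.0.16 (R 4.3.3) with the quasi-likelihood F test in 1 fit of the 4 groups, 16 libraries. Host gene sums were tested alike, and use within a gene by diffSpliceDGE. A call is a Benjamini-Hochberg adjusted p under 0.05 over all features tested, two-sided. CPM are scaled over tested features, separately for circRNAs and host genes. SE is the log2 fold change over the root of F, and 95% intervals are 1.96 SE. Limits for a 0 take 3 counts per library, and they cover counting error only. Named genes are the 8 of smallest p per direction (6 for use), 10 most abundant circRNAs, up to 4 genes per list, every tested circle of called genes, circles present in 1 group alone, and 4 genes high in single libraries. The members and lists were chosen with earlier results of these data known. Some listed genes are not reported here. The tests were checked on simulated data with the same spread for every circRNA. The circRNA test recovered 88 of 100 changes of log2 1.5 and 19 of 100 of log2 0.75, with 2 false calls. The use test called 24 of 86 changes of log2 1.5. Modest changes can thus go uncalled. Alternatives used limma 3.58.1, DESeq2 1.42.0, other scalings and filters, thinned counts, 2 groups only, a block and left-out libraries.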

Additional observations from a re-analysis of the deposited data

Results flagged for a closer look

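In groups of 5 libraries, the highest or lowest MIRI+AICAR library was tested for standing apart by Dixon's ratio, and chance flags about 1 in 20. Of 36 named circRNAs and host genes, 5 were flagged. For the Arhgef40 circle novel_circ_021131, MIRI+AICAR 1 held 349 CPM and the next library 210. For the Kmt2c circle novel_circ_047931, MIRI+AICAR 1 was lowest with 62.3 CPM, against 96.4 in the nearest library. In the other 3, MIRI+AICAR 5 was highest: 617 CPM for the Pde5a circle novel_circ_043532 (nearest 189), 204 CPM for the Eif4e3 circle novel_circ_053438 (nearest 115) and 252 CPM for the Itgb3 sum (nearest 76.6). The causes were not tested.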

How the results depend on the processing

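Calls rest on few reads and 3 MIRI libraries. Of 7917 tested circRNAs 2 were called, against 29 with no filter, 5 by DESeq2, 0 with a minimum count of 10 and 0 by voom with quality weights (255 and 450 at an unadjusted p under 0.05), 1 in thinned libraries, 1 with the replicate block and 1 without both MIRI+AICAR replicate 5 and MIRI replicate 1. Leaving out 1 library gave 0 to 2, with 357 to 459 at an unadjusted p under 0.05 where it was 0. For host genes the 1 call became 34 with no filter, 3 by DESeq2, 0 by voom, with only the 2 groups, in thinned libraries, with the replicate block or without both libraries (216 to 233 at an unadjusted p under 0.05), and 0 to 23 when 1 library was left out (23 without MIRI replicate 2, 8 without MIRI replicate 3). For use within host genes the 1 call became 3 with no filter, 2 with only the 2 groups and 2 without both libraries. Same-numbered libraries did not vary together (correlations 0.0189, 0.000283 and -0.0162), so numbers do not pair them.

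The difference in kinds at a matched total was 233 to 424 when 1 library was left out, where the designs cannot reach p under 0.05, and -68.7 with at least 5 counts. The difference in the intergenic share was -0.0162 by counts and 0.0385 by kinds, and -0.0857 to 0.0654 when 1 library was left out, turning round without MIRI replicate 3. When 1 library was left out, the log2 fold change of the Pde5a circle ran from -2.35 to 0.68 and that of the Itgb3 sum from -3.10 to 0.99, each turning round without MIRI replicate 1. Without both libraries they were 0.05 and 0.16. The causes were not tested. Over 38 named results and 650 values under alternatives, 591 kept their direction and their side of the threshold, 30 lost a call, 25 gained one and 4 turned round.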

Other observations

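Some circRNAs were counted in full in some libraries and not at all in others, whatever the group. Of 926 circRNAs with at least 50 counts in 1 of the 8 libraries, 10 were listed at 0 in at least 2 of them. A circle of Spopl, a ubiquitin ligase adaptor gene (novel_circ_034906, chr2:23537328-23545579, 869 nucleotides), had 183 counts in MIRI+AICAR 1 and 314 in MIRI+AICAR 3, and 0 in the other 3 MIRI+AICAR and all 3 MIRI libraries. It also had 151 and 215 counts in MIRI+Compound C 1 and 4, was at 0 in 12 of 16 libraries in all, and no other Spopl circle exceeded 5 counts in any library. Its log2 fold change of 9.39 was not called (adjusted p = 0.878).

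A circle of Stau2, a double-stranded RNA-binding protein gene (novel_circ_000158), had 174 counts in MIRI+AICAR 4, 93 and 115 counts in MIRI 1 and 2, and 127 in Sham 3, and was at 0 in the other 12 libraries. A circle of the sheddase gene Adam10 (novel_circ_066130) had 117 counts in MIRI+AICAR 4 and 129 in MIRI 1 and was at 0 in 14 libraries. A circle of Myocd, the gene of the cardiac and smooth muscle coactivator myocardin (novel_circ_009345), had 124 counts in MIRI+AICAR 4 alone. A circle of the scaffold gene Dlg1 (novel_circ_026182) had 47 and 51 counts in MIRI+AICAR 1 and 5 and 47 in MIRI 3, and 0 in the other 5 of the 8 libraries.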
